A study of Mus musculus with 6 samples.

Results

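The genes described here encode 9 core proteins of the basement membrane, the thin matrix sheet under the endothelium: the laminin chain genes Lama3, Lama4, Lama5, Lamb1, Lamb2 and Lamc1, the nidogen genes Nid1 and Nid2, and the perlecan gene Hspg2. They were given by name, matched by symbol in the authors' deposited table, and are 9 of the 49315 genes in the count files. RNA was measured in nanoparticle-positive (NP+) and nanoparticle-negative (NP-) endothelial cells of 4T1 mammary tumours, 3 libraries of each, with 1 NP+ and 1 NP- library from each tumour (MET-106, then MET-107, then MET-108). In both groups the hosts were female Balb/c mice, 10 weeks old at harvest, whose mammary fat pad had received 4T1 cells 2 weeks earlier; 4T1 is a transplantable mouse mammary carcinoma line. Every mouse was given 1E12 gold nanoparticles (50 nm, coated with 5 kDa polyethylene glycol with Cy5 as a dye) through the tail vein, and tumours were taken 1 hour later, so the NP- cells are not untreated cells but the cells of the same tumours in which no particle was detected. Cells were depleted of CD45+ leukocytes, enriched for CD31+ endothelium and then sorted by flow cytometry, and each library is a bulk sample of such a sort. In bulk RNA, fewer cells of a type and less RNA per cell cannot be told apart.

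Laminins are secreted heterotrimers of an alpha, a beta and a gamma chain that assemble at the cell surface into a network. Nidogens link that network to collagen IV, and perlecan is a large heparan sulfate proteoglycan that ties it to growth factors and to other matrix proteins. In blood vessels the endothelium makes laminins with the alpha4 chain (Lama4) and, in mature and less leukocyte-permissive vessels, the alpha5 chain (Lama5), while the alpha3 chain (Lama3) is best known from epithelia. The beta1 and beta2 chains (Lamb1 and Lamb2) replace each other in the trimer, and gamma1 (Lamc1) is the common gamma chain that carries the nidogen-binding site.

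Promoter sequence is shown for 4 of the genes: Hspg2 and Nid1, whose levels did not overlap between NP+ and NP- libraries, and the interchangeable beta chain genes Lamb1 and Lamb2, whose fitted fold changes had opposite signs. The RefSeq promoter table (GRCm38.p6) held 5 of the 9 genes, these 4 and Lama5. The runs are read 5′ to 3′ on the gene's strand and stop before the first annotated exonic base, and capitals mark the GC-box letters GGGCGG or, for a match on the other strand, CCGCCC. They cover chr4:137468553-137468768 (Hspg2, plus strand), chr13:13437352-13437601 (Nid1, plus strand), chr12:31265043-31265233 (Lamb1, plus strand) and chr9:108479612-108479735 (Lamb2, plus strand).
Hspg2: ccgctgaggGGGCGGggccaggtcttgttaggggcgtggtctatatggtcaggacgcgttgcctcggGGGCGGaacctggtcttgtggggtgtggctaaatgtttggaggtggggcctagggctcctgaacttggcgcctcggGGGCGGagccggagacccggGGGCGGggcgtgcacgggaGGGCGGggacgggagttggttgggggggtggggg
Nid1: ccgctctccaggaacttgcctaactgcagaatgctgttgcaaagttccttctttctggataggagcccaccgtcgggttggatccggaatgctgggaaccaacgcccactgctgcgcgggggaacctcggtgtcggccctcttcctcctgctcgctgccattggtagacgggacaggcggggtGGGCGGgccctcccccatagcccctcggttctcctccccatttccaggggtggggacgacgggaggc
Lamb1: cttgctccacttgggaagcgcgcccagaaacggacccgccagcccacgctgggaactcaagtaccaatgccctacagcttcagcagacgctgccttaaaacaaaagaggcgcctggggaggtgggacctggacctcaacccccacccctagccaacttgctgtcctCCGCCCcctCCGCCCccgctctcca
Lamb2: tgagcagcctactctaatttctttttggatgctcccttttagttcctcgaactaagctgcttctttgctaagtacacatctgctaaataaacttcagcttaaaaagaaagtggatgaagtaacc
The Hspg2 run holds 5 GC boxes, the Lamb1 run 2 and the Nid1 run 1, and the Lamb2 run holds 0. Over the full windows of 300 bases (250 before to 50 after the RefSeq start), GGGCGG was found on either strand in 4 of the 5 laminin, nidogen and perlecan promoters and in 35.7% of 32851 promoters. The G and C content of the windows was 70.3% for Hspg2, 64.7% for Nid1, 63.7% for Lamb1, 72.7% for Lama5 and 44.0% for Lamb2, against a median of 52.7% over all promoters. Of the other letters searched on both strands, TATAAA (in 13.6% of all promoters), TGACTCA (5.20%) and CACGTG (7.15%) were in 0 of the 5 windows, and GGAAGT was in that of Lamb2 (23.8% of all promoters). These matches are letters in a window, and binding was not measured.

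Libraries held between 20856410 and 58089600 counts in genes, and the 9 genes drew from 439 to 68333 counts each. Levels are given in CPM, counts scaled to a common library size by the TMM method, group values are mean ± SD over 3 libraries, and 3 values of a group in a row always follow that tumour order. Levels of the 10 endothelial marker genes summed to 10828 to 13198 CPM in NP+ and 7106 to 10109 CPM in NP- libraries. Sums for the marker lists of other cells were higher in each NP- library than in any NP+ library for pericyte and smooth muscle genes (98.6 to 125 CPM in NP+, 164 to 892 CPM in NP-), fibroblast genes (23.9 to 71.7 CPM in NP+, 75.6 to 4164 CPM in NP-), epithelial and tumour genes (8.65 to 14.5 CPM in NP+, 23.1 to 631 CPM in NP-), macrophage genes (17.7 to 27.2 CPM in NP+, 44.9 to 123 CPM in NP-) and leukocyte genes (12.7 to 14.5 CPM in NP+, 21.3 to 129 CPM in NP-). Adipocyte genes summed to 1131 to 1557 CPM in NP+ and 1791 to 3269 CPM in NP-. Of the 8 adipocyte genes listed, 2, 0 and 0 were at 0 counts in NP+ and 0, 1 and 3 in NP- libraries. Lymphatic endothelial genes summed to 449 to 514 CPM in NP+ and 323 to 2212 CPM in NP-. At an unadjusted p under 0.05, 10 of 10 fibroblast, 7 of 10 mural, 8 of 8 epithelial, 6 of 10 macrophage and 5 of 9 leukocyte genes tested were lower in NP+, as were 15.4% of all genes tested. Also lower were 5 of 8 lymphatic endothelial and 1 of 6 adipocyte genes tested, and 0 of either list were higher. Of the 10 endothelial genes 4 were higher by that threshold (8.01% of all genes) and 0 lower. Libraries did not overlap as higher for 6 of the 10 (13.3% of all genes tested). Of the 10 epithelial genes listed, 2, 1 and 0 were at 0 counts in NP+ and 0, 1 and 1 in NP- libraries. The highest fibroblast, mural and epithelial sums were all in the NP- library of tumour MET-106. Their part in the results on laminins was not tested.

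Compared per length, the 2 nidogen transcripts were the most abundant in both groups and Lama3 the least. In NP+ cells Nid1 stood at 223 ± 34.1 and Nid2 at 215 ± 36.0 CPM per kb of exon, above all other members in every NP+ library. Lamb1 (112 ± 15.5 CPM per kb), Hspg2 (88.3 ± 13.8 CPM per kb) and Lama4 (87.8 ± 10.8 CPM per kb) followed with overlapping ranges. Lamc1 (32.2 ± 7.80 CPM per kb), Lamb2 (27.7 ± 7.77 CPM per kb) and Lama5 (19.5 ± 3.12 CPM per kb) overlapped one another as neighbours in the order, and Lama3 lay below them at 1.17 ± 0.228 CPM per kb. In NP- cells the order was the same except that Lama4 (60.2 ± 31.6 CPM per kb) stood before Hspg2 (42.1 ± 16.8 CPM per kb) and Lamb2 (30.5 ± 11.2 CPM per kb) before Lamc1 (17.5 ± 2.09 CPM per kb). The first 6 in the NP- order each overlapped with the next among them. The NP+ mean of Nid1 was higher than that of 98.9% of the genes tested, and that of Lama3 higher than 51.8%.

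**Figure D1:**
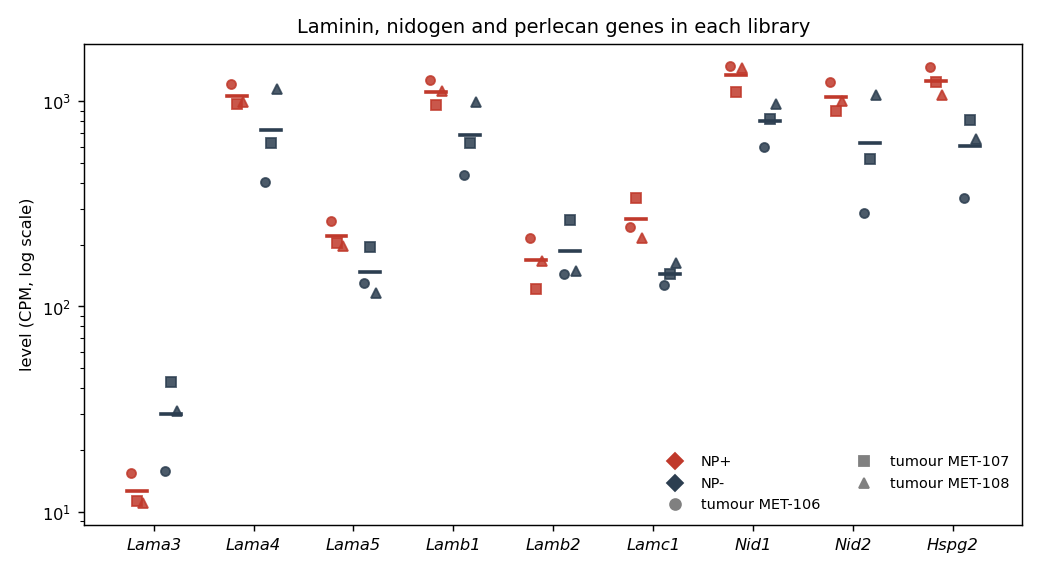
Level of each gene (CPM, log axis) in the 3 NP+ and the 3 NP- libraries, with bars at the group means and the tumour given by the marker shape. Lama5, Lamc1, Nid1 and Hspg2 lie higher in every NP+ library than in any NP- library, Lama3 lies lower, and the other 4 genes overlap.

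Hspg2, Lamc1, Nid1 and Lama5 had higher levels in every NP+ library than in any NP- library and Lama3 had lower ones, but none of the 9 genes passed the adjusted threshold. The fitted log2 fold change, NP+ over NP-, was positive for 7 of the 9 genes and negative for Lama3 and Lamb2. With edgeR's quasi-likelihood test and Benjamini-Hochberg adjustment over 23989 genes, 0 of 9 had an adjusted p under 0.05 in either direction, and their adjusted p ran from 0.117 to 0.778. Over all genes, 0.0125% passed as higher and 0.0167% as lower. At an unadjusted p under 0.05, 5 of the 9 were higher (8.01% of all genes tested) and 1 was lower (15.4% of all genes tested). By DESeq2, 3 of the 9 were higher (3.96% of all genes) and 1 lower (9.81% of all genes) at an adjusted p under 0.05. Libraries of the 2 groups did not overlap for 4 genes that were higher in NP+ (13.3% of all genes tested) and 1 that was lower (15.6% of all genes tested). With total-count scaling 2 genes did not overlap as higher and 1 as lower (4.86% and 22.8% of all genes tested), and the counts were the same with upper-quartile scaling (6.12% and 20.3%). Without the NP- library of MET-106, 3 were higher (12.3% of all genes) and 1 was lower (22.4%) at an unadjusted p under 0.05. Without it 4 did not overlap as higher (21.7% of all genes) and 1 as lower (31.4%). The median log2 fold change was 0.70 over the 9 genes and -0.29 over all genes tested. With only genes of at least 5 CPM in 3 libraries the median over all genes was -0.019. The log2 fold changes were then -1.54 for Lama3, 0.27 for Lama4, 0.31 for Lama5, 0.42 for Lamb1 and -0.44 for Lamb2. They were 0.62 for Lamc1, 0.48 for Nid1, 0.45 for Nid2 and 0.78 for Hspg2, so the gap differed with the filter.

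Perlecan and the nidogens bind to the laminin network rather than forming it. Hspg2, the perlecan gene, stood at 1469, 1244 and 1075 CPM in the NP+ libraries, against 339.6, 810.5 and 659 CPM in the NP- libraries. The groups did not overlap, and the NP- library of MET-106 was the lowest of the 6. Hspg2 had the largest fold change of the 9 in size after Lama3, with means of 1263 ± 198 CPM in NP+, against 603 ± 240.4 CPM in NP-. Its log2 fold change was 1.07 (SE 0.31, adjusted p = 0.134 by edgeR's quasi-likelihood test). It was higher in NP+ cells of 3 of 3 tumours, 4.33 times as high in MET-106 and 1.54 and 1.63 times in MET-107 and MET-108. By DESeq2 its adjusted p was 0.00654.

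Nid1, a nidogen gene, stood at 1489, 1114 and 1449.8 CPM in the NP+ libraries, against 597, 823 and 974 CPM in the NP- libraries. Every NP+ library lay above every NP- library, and NP+ was higher in 3 of 3 tumours. The log2 fold change was 0.76 (SE 0.23, adjusted p = 0.139 by edgeR's quasi-likelihood test). Its paralog Nid2 stood at 1240.4, 896 and 1008 CPM in NP+, with 286, 525 and 1079 CPM in NP-. The groups overlapped, because the NP- library of MET-108 exceeded 2 of the 3 NP+ libraries. Nid2 was 4.34 times as high in NP+ as in NP- cells of tumour MET-106, 1.71 times in MET-107 and 0.935 times in MET-108, and its log2 fold change was 0.74 with an SE of 0.41 (adjusted p = 0.300 by edgeR's quasi-likelihood test). Without the NP- library of MET-108 it was 1.40. On the opposite strand, 386 exonic bases of Nid2 (7.90% of its exon length) overlap the gene Rtraf (up to 11420 counts in a library), and the kit does not mark strand, so reads there cannot be assigned with certainty.

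Among the alpha chains, Lama4 and Lama5 had positive fold changes and Lama3 a negative one. Lama4, the main vascular alpha chain gene, stood at 1209.7, 972 and 998 CPM in the NP+ libraries, against 405, 627 and 1149 CPM in the NP- libraries. The NP- values overlapped the NP+ values only through tumour MET-108, where the ratio of NP+ to NP- was 0.869; in MET-106 it was 2.99. The log2 fold change was 0.54 (SE 0.34, adjusted p = 0.340 by edgeR's quasi-likelihood test). Lama5, the other vascular alpha chain gene, stood at 262, 204 and 198 CPM in NP+, with 131, 195 and 116 CPM in NP-. The groups did not overlap, but the lowest NP+ value (198 CPM) and the highest NP- value (195 CPM) lay close together. Its log2 fold change was 0.59 (SE 0.23, adjusted p = 0.182 by edgeR's quasi-likelihood test).

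Lama3, the alpha chain gene known from epithelial laminin, stood at 15.4, 11.3 and 11.0 CPM in the NP+ libraries, against 15.7, 42.7 and 30.8 CPM in the NP- libraries. The groups did not overlap, but the NP+ and NP- values of MET-106 were nearly equal, and the other NP- libraries stood well above them. The log2 fold change was -1.24 (SE 0.37, adjusted p = 0.139 by edgeR's quasi-likelihood test; adjusted p = 0.0232 by DESeq2). In the NP- libraries the epithelial marker genes summed to 631, 41.7 and 23.1 CPM and the lymphatic endothelial ones to 323, 2212 and 906 CPM. The part of either in the Lama3 levels was not tested. The gene Gm29200 overlaps 197 exonic bases of Lama3 on the opposite strand and had at most 75 counts in a library.

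Lamb1 and Lamb2 encode the interchangeable beta chains. Lamb1 stood at 1265, 956 and 1118 CPM in the NP+ libraries, against 437, 627 and 989 CPM in the NP- libraries. It was higher in NP+ in 3 of 3 tumours, by ratios of 2.90, 1.53 and 1.13, though the NP- library of MET-108 exceeded the NP+ library of MET-107. The log2 fold change was 0.70 (SE 0.29, adjusted p = 0.194 by edgeR's quasi-likelihood test). Lamb2 stood at 217, 122 and 166 CPM in NP+, with 144, 265 and 149 CPM in NP-. The ranges overlapped, and NP+ was higher in 2 tumours and lower in MET-107. Its log2 fold change was -0.14 (SE 0.30, adjusted p = 0.778 by edgeR's quasi-likelihood test), and its sign differed between settings.

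Lamc1, the common gamma chain gene, stood at 245, 339 and 215 CPM in the NP+ libraries, against 128, 144 and 162 CPM in the NP- libraries. The groups did not overlap, and the spread within NP- was the smallest of the 9 genes relative to its mean (11.9%). The log2 fold change was 0.88 (SE 0.21), with the lowest adjusted p of the 9 genes (0.117 by edgeR's quasi-likelihood test, 0.00548 by DESeq2). NP+ cells had 1.92, 2.35 and 1.33 times the NP- level in the 3 tumours.

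**Figure D2:**
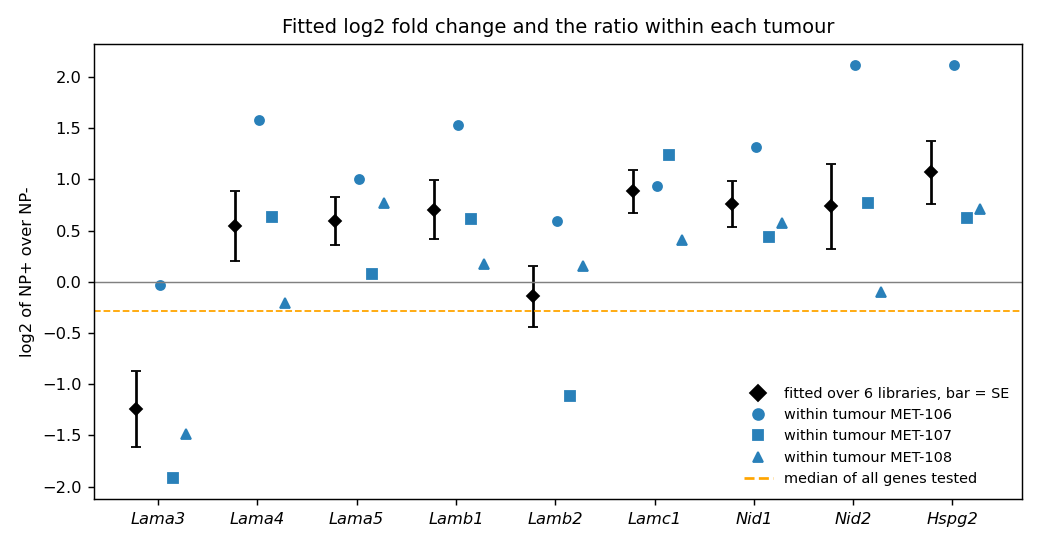
Log2 of NP+ over NP- for each gene: the fitted value over all 6 libraries with its SE (black), and the ratio within each tumour (blue). The blue points of MET-106 lie highest for every gene except Lamc1, and those of MET-108 lie below 0 for Lama3, Lama4 and Nid2.

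Tumours differed in the size of these differences. NP+ was higher for 8 of the 9 genes in MET-106, 7 in MET-107 and 6 in MET-108, with a median log2 ratio of 1.32, 0.61 and 0.18. In the same libraries the median over all genes tested (log2 with 0.5 CPM added) was -0.09, -0.20 and -0.08. Summed over the 9 genes, the level was 7412, 5860 and 6238 CPM in NP+, with 2482, 4058 and 5308 CPM in NP-. Set against the summed endothelial markers of the same library, a measure chosen after seeing the data, these sums were 56.2%, 54.1% and 51.7% in NP+ and 34.9%, 45.3% and 52.5% in NP-. By this measure NP+ and NP- cells of MET-108 stood close together, while the values of MET-106 were apart.

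The number of the 9 genes past an adjusted p of 0.05 differed between settings. Without the NP- library of MET-106, the one with the highest fibroblast and epithelial sums, Hspg2 was higher (adjusted p = 0.0482 by edgeR's quasi-likelihood test) and Lama3 lower (adjusted p = 0.0283), beside 3.48% and 4.86% of all genes. Without the NP- library of MET-108, 0 of the 9 passed, beside 0.428% higher and 0.671% lower over all genes. With the tumour as a block, 0 of the 9 passed (0.00834% of all genes higher, 0.0542% lower). With no low-count filter 2 were higher (1.19% of all genes) and 0 lower (1.55%), and with at least 5 CPM in 3 libraries 0 passed (0.169% higher, 0.815% lower; with the block as well 0.412% and 1.71%). With the block, limma-voom called 3 higher (2.03% of all genes) and 0 lower (4.49%), and DESeq2 called 4 higher (5.14%) and 1 lower (11.2%). Hspg2 was among the genes called in each of these settings that called any.

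In the authors' deposited table, whose fold changes were turned here to NP+ over NP-, 3 of the 9 genes were higher and 1 lower at an adjusted p under 0.05 (3.71% and 9.45% of the genes with an adjusted p there). They were Hspg2 (log2 fold change 1.17, adjusted p = 0.00469 in the authors' deposited table), Lamc1 (0.96, adjusted p = 0.00519), Nid1 (0.85, adjusted p = 0.0150) and, lower, Lama3 (-1.14, adjusted p = 0.0294). In the authors' deposited table, Lamb1 had an adjusted p of 0.0639 and Lama5 of 0.0717, and Lamb2 had the highest of the 9 at 0.931.

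Ratios between chains within a library do not depend on how libraries were scaled, and 6 were compared on counts per kb. Lamb1 exceeded Lamb2 3.58, 4.80 and 4.13 times in the NP+ libraries, and 1.86, 1.45 and 4.08 times in the NP- libraries. The NP+ ratio was above the NP- ratio in 3 of 3 tumours, by only 0.02 on the log2 scale in MET-108, and the mean log2 difference was 0.90 (exact two-sided permutation p = 0.2, adjusted p = 0.96; 3 against 3 libraries cannot give less than 0.1). Lama4 exceeded Lama5 4.35, 4.49 and 4.76 times in NP+ and 2.92, 3.04 and 9.34 times in NP-, so the NP+ values were tight and lay inside the NP- range. Nid1 over Nid2 was 0.970, 1.00 and 1.16 in NP+ and 1.69, 1.27 and 0.730 in NP-, again a narrow NP+ range inside a wide NP- range. For these ratios and for Lama4, Lamb1 and Hspg2 over Lamc1, the mean log2 differences ran from -0.19 to 0.29 and the exact permutation p from 0.6 to 1.

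**Figure D3:**
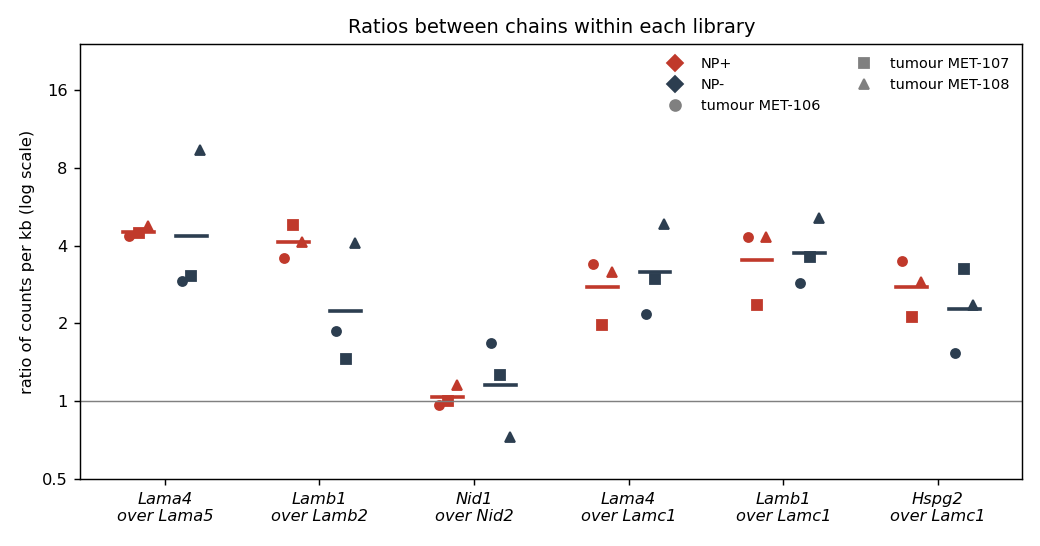
Ratios of counts per kb between pairs of chains within each library (log axis), NP+ and NP-, with bars at the geometric means. For Lama4 over Lama5 and Nid1 over Nid2 the NP+ points sit close together, from 4.35 to 4.76 and from 0.970 to 1.16, while the NP- points spread to both sides.

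Adding the laminin chains outside the 9 genes gives the make-up of the alpha and beta classes as shares of counts per kb. Lama4 took 80.8 ± 0.669% of the alpha chain signal in NP+ and 75.3 ± 9.69% in NP-, and Lama3 took 1.07 ± 0.0698% in NP+ and 3.65 ± 1.43% in NP-. Lamb1 took 80.4 ± 2.24% of the beta chain signal in NP+ and 67.6 ± 11.0% in NP-. Its share was 78.2%, 82.6% and 80.5% in NP+ and 63.8%, 59.0% and 80.0% in NP- libraries, so the highest NP- library exceeded the lowest NP+ library. For Lama3 the groups did not overlap (exact two-sided permutation p = 0.1, the smallest possible; adjusted p = 0.157 over the 11 chains tested).

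**Figure D4:**
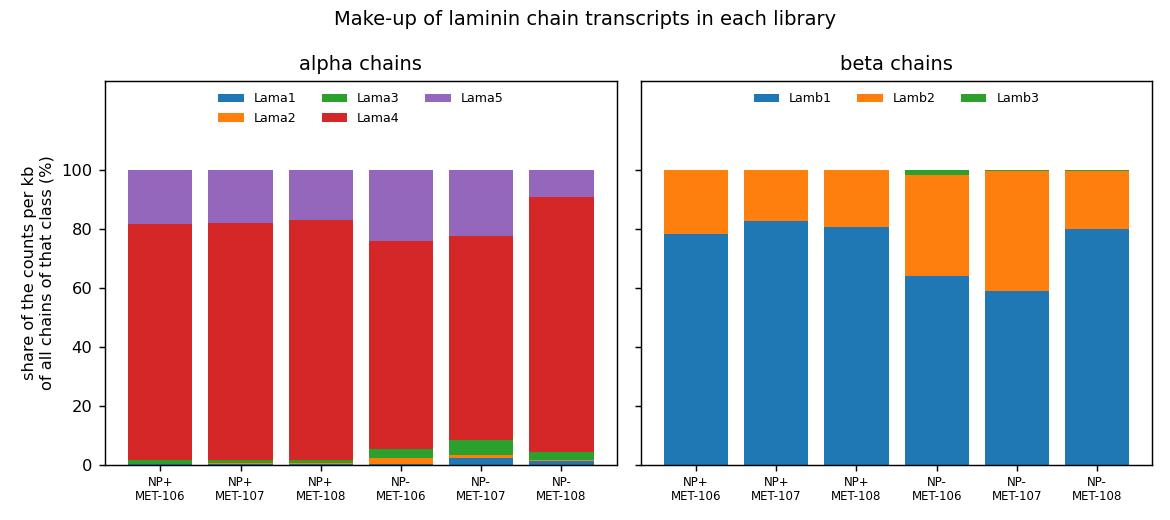
Share of each chain in the counts per kb of its class (%), stacked for the alpha and beta chains in the 3 NP+ and 3 NP- libraries. Lamb1 takes 78.2% to 82.6% of the beta class in NP+ libraries and 59.0% to 80.0% in NP- libraries.

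Genes that work beside these proteins were described from 4 lists: other laminin chains, basement membrane partners, laminin receptors and enzymes that glycosylate dystroglycan, and 0 of their 52 members passed the adjusted threshold of edgeR's quasi-likelihood test. At an unadjusted p under 0.05, 18 were higher and 9 lower in NP+ (8.01% and 15.4% of all genes tested), and by DESeq2 9 were higher and 8 lower at an adjusted p under 0.05 (3.96% and 9.81% of all genes). All 5 other laminin chain genes had negative fold changes, with 3 at an unadjusted p under 0.05 and a median log2 fold change of -2.18. Lama2, the alpha2 chain of muscle and mesenchymal basement membranes, stood at 2.71 ± 0.817 CPM in NP+, against 12.3 ± 1.90 CPM in NP- (adjusted p = 0.0875 by edgeR). Lamb3, the beta chain of epithelial laminin, stood at 0.648 ± 0.497 CPM in NP+, against 5.21 ± 3.39 CPM in NP- (adjusted p = 0.132), and Lama1, an embryonic and epithelial alpha chain, at 1.93 ± 0.647 CPM in NP+, against 9.32 ± 6.93 CPM in NP- (adjusted p = 0.149). By library, Lama1 was at 1.29, 1.93 and 2.58 CPM in NP+, against 1.67, 15.2 and 11.1 CPM in NP-. Its groups overlapped. In the NP- libraries the fibroblast marker genes summed to 4164, 177 and 75.6 CPM and the epithelial ones to 631, 41.7 and 23.1 CPM. Both sums were higher in NP- too, and their part was not tested.

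Of the 24 basement membrane partners, 10 were higher and 5 lower at an unadjusted p under 0.05, with a median log2 fold change of 0.21; over all genes tested 8.01% were higher and 15.4% lower by that threshold, here and for the receptor and glycosylation genes, and the median was -0.29. The abundant collagen IV chain gene Col4a2 stood at 5506 ± 378 CPM in NP+, against 2401 ± 573 CPM in NP- (log2 fold change 1.20, SE 0.21, adjusted p = 0.0875 by edgeR's quasi-likelihood test). Vwa1, whose product binds perlecan, stood at 1254 ± 76.8 CPM in NP+, against 565 ± 189 CPM in NP- (adjusted p = 0.110), and Pxdn, the peroxidase that cross-links collagen IV, at 1438 ± 320.4 CPM in NP+, against 651 ± 225 CPM in NP- (adjusted p = 0.118). Of the 11 laminin receptor genes, 6 were higher and 1 lower at an unadjusted p under 0.05, with a median of 0.54. The integrin chain genes Itga3 (234 ± 42.7 CPM in NP+, 112 ± 30.3 CPM in NP-, adjusted p = 0.111), Itga2 (61.4 ± 3.17 CPM in NP+, 32.6 ± 7.98 CPM in NP-, adjusted p = 0.120) and Itgb1 (2200.2 ± 213 CPM in NP+, 799.9 ± 418 CPM in NP-, adjusted p = 0.122) had the smallest p. Of the 12 dystroglycan glycosylation genes, 2 were higher and 0 lower at an unadjusted p under 0.05, with a median of 0.23. Pomgnt1, which extends the sugar chain of dystroglycan, stood at 20.6 ± 4.29 CPM in NP+, against 12.2 ± 1.72 CPM in NP- (adjusted p = 0.165 by edgeR), and B3galnt2 at 36.2 ± 6.44 CPM in NP+, against 24.4 ± 6.92 CPM in NP- (adjusted p = 0.232). Pomgnt1 was among the 2 higher genes. B3galnt2 was not, with an unadjusted p of 0.061 by edgeR's quasi-likelihood test and overlapping groups.

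**Figure D5:**
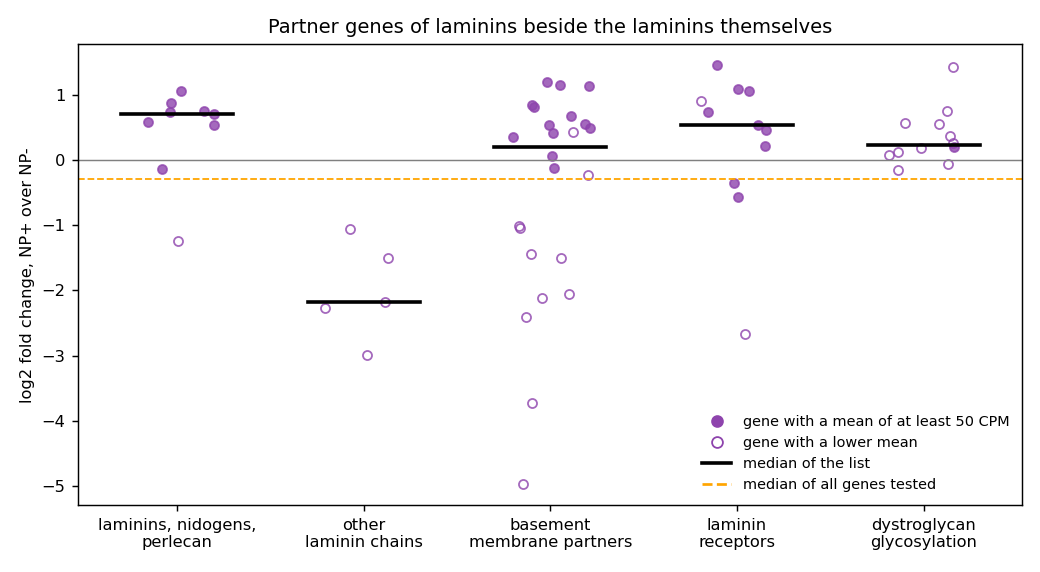
Fitted log2 fold change, NP+ over NP-, of each gene in 5 lists, with the list median (black bar) and the median of all genes tested (dashed). The 5 other laminin chains all lie below 0, and the medians of the 9 genes, the partners, the receptors and the glycosylation enzymes are 0.70, 0.21, 0.54 and 0.23.

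Across the 6 libraries the members' log2 CPM resembled each other to different degrees, given here as Pearson's r, a description over libraries that share tumours and groups. Lama4 and Nid2 were each among the nearest 2 genes of the other (r = 0.997) among 7303 genes with a mean of at least 20 CPM. Lamb1 was close to both (r = 0.977 with Lama4 and 0.988 with Nid2), whereas Lamb2 had r between -0.32 and 0.58 with the other 8. The genes nearest to Hspg2 were Virma (r = 0.997) and Dnaja3 (0.991), those nearest to Nid1 were Dnajb11 (0.999) and Arhgap17 (0.996), and those nearest to Lamc1 were Ube2h (0.991) and Itgav (0.983). Creb3l2 (r = 0.996) was nearest to Lamb1, Psen2 (0.993) and Apobec3 (0.990) were nearest to Lama5, Fbxo7 (0.991) and Ablim3 (0.981) to Lama3, and Sema6a (0.977) and Kbtbd4 (0.974) to Lamb2. The nearest gene to Nid2 was Dhx15 (r = 0.999), and after Nid2 the nearest to Lama4 was Lcp2 (0.996).

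On GRCm38 the genes lie on separate chromosomes, with counts summed over all their exons. Lama4 (ENSMUSG00000019846) lies on chromosome 10 from 38965515 to 39110188, plus strand, and Lama5 (ENSMUSG00000015647) on chromosome 2 from 180176373 to 180225859, minus strand. Lama3 (ENSMUSG00000024421) lies on chromosome 18 from 12333819 to 12583013, plus strand. Lamb1 (ENSMUSG00000002900) lies on chromosome 12 from 31265234 to 31329644 and Lamb2 (ENSMUSG00000052911) on chromosome 9 from 108479736 to 108490530, both plus strand. Lamc1 (ENSMUSG00000026478) lies on chromosome 1 from 153218922 to 153332786, minus strand. Nid1 (ENSMUSG00000005397) lies on chromosome 13 from 13437602 to 13512275, Nid2 (ENSMUSG00000021806) on chromosome 14 from 19751257 to 19811787 and Hspg2 (ENSMUSG00000028763) on chromosome 4 from 137468769 to 137570630, all plus strand.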

How the data were processed

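Libraries were made with SMART-Seq v4 and read as 150 bp pairs, per the labels' protocols. The authors deposited 1 raw count per gene and library. Trimmomatic 0.036, STAR 2.5.2b, featureCounts of Subread 1.5.2, DESeq2 and build GRCm38 (mm10) are named in the submitters' processing notes, while the gene annotation version and how strand and multi-mapped reads were handled are not stated in the labels. The authors' deposited table adds a signal per library (count divided by a size factor), their log2 fold changes (NP- over NP+) and their p-values. Of its 156426 signal values 100% gave whole reads within 0.01 reads, and 100% of these equalled the raw counts. The count test on them called 7 genes of 23413 tested, and it repeats the main test on fewer genes.

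Counts were tested here with edgeR 4.0.16 in R 4.3.3 (quasi-likelihood test, no block, TMM, filterByExpr by group with a minimum count of 10), which kept 23989 genes including all 9. The threshold was a Benjamini-Hochberg adjusted p under 0.05. limma 3.58.1 and DESeq2 1.42.0 were alternatives, and the tests were tried on simulated data, where DESeq2 called many more unchanged genes than edgeR or limma-voom did, with and without the block. An SE is the log2 fold change divided by the square root of F. CPM per kb uses the exon length in the count files, of all isoforms together. Ratios and shares used exact two-sided permutation tests, which ignore the pairing.

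NP+ and NP- libraries share a tumour by label. Same-tumour deviations from the group means correlated at 0.24, 0.19 and 0.06. The tumour as a block is an alternative. Nothing says how the tumours relate to separate experiments. Without the block, p values measure the spread between the 3 libraries within each group, and these libraries come from only these 3 tumours. The genes, lists and tests were chosen with earlier results of these data known. Named were all 9 genes, the 3 genes per list with the smallest p, and the 2 genes nearest in r to each of the 9, except that some items are not reported here. Reads carry no molecular identifiers.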

Additional observations from a re-analysis of the deposited data

How the results depend on the processing

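All fold changes of the 9 genes except that of Lamb2 kept their sign in 21 other settings, including the recovered reads, which repeat the same counts. Lamb2 was at 0.086 without a low-count filter, and its log2 fold change ran from -0.25 to 0.21 when an NP- library, from -0.22 to 0.087 when an NP+ library and from -0.32 to 0.38 when a tumour was left out. With the tumour as a replicate block 0 of the 9 genes passed, as without it, and over all genes 2 were higher and 13 lower, against 3 and 4. At an unadjusted p under 0.05 the block gave 6 of the 9 higher, against 5, with Nid2 added. The share of all genes at that threshold was counted only for the main setting and without the NP- library of MET-106. Counts of calls, higher then lower, were as follows, where the cause was not tested. By DESeq2 949 and 2353 genes, 3 and 1 of the 9, and 9 and 8 of the 52 partner genes passed. By limma-voom 12 genes were higher, with 1 partner. Upper-quartile and total-count scaling gave 18 and 9 lower genes; they moved the median of all genes from -0.29 to -0.53 and -0.59, and relative to it the log2 fold change of Hspg2 was 1.33 and 1.34, against 1.35. That relative value was 0.80 with at least 5 CPM in 3 libraries and 2.00 without a low-count filter, where the median is over other genes (10671 and 44259 tested). Under either scaling, total-count or upper-quartile, 2 of the 9 and 9 partners were higher at an unadjusted p under 0.05. Under either, 2 of the 9 did not overlap as higher and 1 as lower. Without a low-count filter the counts were 525 and 686 genes, 2 of the 9 higher (Lamc1 and Hspg2), and 8 and 5 partners. With at least 5 CPM in 3 libraries they were 18 and 87 genes and 1 partner lower, and at an unadjusted p under 0.05 2 of the 9 higher and 9 and 5 partners. Settings added after seeing the data were DESeq2 with the block (1233 and 2687 genes, 4 and 1 of the 9, 11 and 9 partners), limma-voom with the block (486 and 1077 genes, 3 of the 9 higher, 10 and 6 partners), the block with the 5 CPM filter (44 and 183 genes, 2 partners lower, and 2 of the 9 higher with 9 and 5 partners at an unadjusted p under 0.05) and the recovered reads.

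Leaving out a library or tumour gave 0 to 968 higher and 0 to 1352 lower genes. The highest counts came without the NP- library of MET-106, where Hspg2 (adjusted p = 0.0482) and Lama3 (0.0283) passed, so 0 to 1 of the 9 were higher and 0 to 1 lower. At an unadjusted p under 0.05, 3 to 6 of the 9 were higher and 0 to 1 lower. Without the NP- library of MET-106, 12.3% of all genes were higher and 22.4% lower by that threshold. Libraries did not overlap for 4 to 7 of the 9 as higher and for 1 as lower in NP+, with 7 higher once the NP- library of MET-108 was left out, where the log2 fold change of Nid2 was 1.40, against 0.74, and that of Lama4 1.07, against 0.54. Over all genes 21.7% did not overlap as higher without the NP- library of MET-106, against 13.3% with all 6 libraries. As lower the shares were 31.4% and 15.6%. They were not counted for the settings with 7, so the 7 cannot be read as particular to the 9 genes. Partners ran from 0 to 7 higher and 0 to 4 lower, and from 9 to 18 and 6 to 11 at an unadjusted p under 0.05. The log2 difference of the ratio ran from 0.48 to 1.33 for Lamb1 over Lamb2, from -0.23 to 0.60 for Lama4 over Lama5, from -0.57 to 0.17 for Nid1 over Nid2, from -0.61 to 0.12 for Lama4 over Lamc1, from -0.43 to 0.20 for Lamb1 over Lamc1 and from -0.16 to 0.73 for Hspg2 over Lamc1. Within those ranges it was -0.21 without tumour MET-106 and -0.20 without MET-107 for Lama4 over Lama5, 0.013 without MET-107 and 0.019 without MET-108 for Lama4 over Lamc1, and 0.18 without MET-107 for Lamb1 over Lamc1. Without an NP- library it was as low as -0.49 for Nid1 over Nid2, -0.46 for Lama4 over Lamc1 and -0.28 for Lamb1 over Lamc1. Paired within tumours, the exact sign-flip permutation p was 0.25 for Lamb1 over Lamb2, the smallest possible with 3 tumours. Dividing by length or using the deposited signal cannot change these differences, because lengths and size factors cancel in them.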
